A study of Mus musculus with 40 samples.

Results

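The hearts of CM-Il11-Tg mice were compared at 6 weeks and at 3 weeks after tamoxifen, to ask whether the transcriptional response to *Il11* had levelled off by 3 weeks or went on moving. The members were chosen by their labels, as every library of the series named as transgenic, given tamoxifen and taken 3 or 6 weeks later: 15 of the 40 libraries, with 4 male and 4 female hearts at 3 weeks and 3 male and 4 female hearts at 6 weeks. All of these mice carried 1 copy of the α-MHC-MerCreMer (MCM) transgene, in which a cardiomyocyte promoter drives a Cre that tamoxifen activates, and 1 copy of the *Rosa26-Il11* transgene. All were given 20 mg/kg of tamoxifen on 5 consecutive days from 8 weeks of age, so hearts at 6 weeks also came from older mice than hearts at 3 weeks. Control hearts, from littermates with the MCM transgene and without *Rosa26-Il11* that also received tamoxifen (3 male and 4 female), and CM-Il11-Tg hearts at 1 week (4 of each sex) set the scale of the earlier steps. Controls are labelled as baseline and uninduced CM-Il11-Tg hearts (4 of each sex) received no tamoxifen, so neither gives a control taken at 3 or 6 weeks, and time since tamoxifen, age and duration of *Il11* expression cannot be told apart. Uninduced hearts entered the fits for their spread alone. A male library whose labels conflict between control and 6 weeks, and a second with the opposite conflict, were left out. Each library was 1 mouse, made from polyA RNA of tissue labelled heart (the study's methods name the left ventricle), so p-values measure the spread between mice.

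IL11 is a cytokine of the IL6 family that binds its own receptor chain together with the shared signal transducer IL6ST, and signals through JAK kinases and STAT3 and through the ERK cascade. In the heart and other organs it is known for its action on fibroblasts, which respond with matrix protein synthesis. STAT3 signalling also induces secreted acute phase proteins, and inflamed tissue gains antigen-presenting cells, which display peptides on MHC class II molecules. Bulk tissue was measured, so a change in the number of cells of a type and a change in RNA per cell cannot be told apart.

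The 15 libraries held between 20806844 and 49961134 reads on listed genes. The deposited values are read counts divided by 1 factor for each library, and are called normalised values here. The 15 cardiomyocyte markers summed to 61919 to 70865 and 52080.3 to 64438 in males at 3 and 6 weeks, and to 56650.5 to 67831 and 49267 to 61672 in females, at the level of heart tissue in both groups. Some libraries stood apart from their group. Female 6 weeks replicate 2 held 862 of atrial cardiomyocyte markers, against 24.9 to 40.1 in the other 3 female hearts at 6 weeks and 21.4 to 28.7 at 3 weeks. Male 6 weeks replicate 4 was the deepest library and held 15972 of erythroid markers, against 2372 and 2627 in the other 2 hearts of its group. Male 3 weeks replicate 1 held 726 of interferon response genes, against 249.5 to 324 in the other 3. Among female hearts at 6 weeks, 8 RNAs retained in the nucleus (such as *Malat1* and *Neat1*) summed to 488, 617 and 647 in replicates 2, 3 and 4 and to 2458 in replicate 1, against 2036 to 2470.1 in the 4 female hearts at 3 weeks. That list was chosen after its values had been seen, and results that rest on these libraries are given with and without them.

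*Il11* did not differ between the times beyond the spread between hearts. Reads on it come from the transgene and from the endogenous gene alike. *Il11* values were 529, 336, 422 and 398 in male hearts at 3 weeks and 485, 407 and 819 at 6 weeks. In females they were 504, 541, 445 and 488 at 3 weeks and 497, 436, 328 and 590.5 at 6 weeks. The groups overlapped in both sexes. The controls averaged 0.0867 in males and 0.0886 in females, and hearts at 1 week averaged 462 and 484. The log2 change from 3 to 6 weeks, as the mean of both sexes, was 0.13 (SE 0.17, 95% interval -0.21 to 0.47), with p = 0.513 in an exact permutation test within sex. Its receptor *Il11ra1* gave 0.26 (SE 0.10, limma adjusted p = 0.322), the signal transducer *Il6st* 0.02 (SE 0.09), the transcription factor *Stat3* 0.12 (SE 0.10) and the STAT3-induced feedback inhibitor *Socs3* 0.14 (SE 0.23). Of the 12 genes for the receptor and its signal transducers, 0 passed the adjusted test in either direction, and their median log2 change was -0.01.

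Few genes passed the test between 3 and 6 weeks. As the mean of both sexes, 3 of 16627 genes tested (0.018%) were called, by limma at an adjusted p under 0.05. All 3 rose, and 0 fell (0.0%). Within males 0 of 16931 genes (0.0%) were called in either direction, and the lowest adjusted p was 0.659. Within females 0 of 16956 (0.0%) were called, and the lowest was 0.0794. At an unadjusted p under 0.05, 610 genes (3.6%) were higher and 462 (2.73%) lower in males, 1174 (6.92%) higher and 1398 (8.24%) lower in females, and 965 (5.8%) higher and 910 (5.47%) lower as the mean of both sexes. Other tools on the recovered reads gave 0 calls in males, 0 in females and 1 as the mean of both sexes with edgeR, and 1, 117 and 16 with DESeq2. Weighting each library by its quality in limma gave 1 call in males, 715 in females and 847 as the mean of both sexes, of which 337 were higher and 510 lower. The count in females depended on 1 library. Without female 6 weeks replicate 1, the heart whose nuclear RNAs were at the level of 3 weeks, limma called 361 genes in females, 99 higher and 262 lower, and 84 genes as the mean of both sexes, 31 higher and 53 lower. Of the 8 nuclear RNAs 3 were among the 361 of 16956 genes. The 361 also held 5 of 17 complement, 2 of 15 metalloproteinase, 2 of 20 fibroblast activation and 1 of 22 fatty acid oxidation genes, all higher. Lower ones were 2 of 15 clock genes and 1 of 12 receptor and signal transducer genes. *Prodh*, *Aqp2*, *Nbl1* and *Clec11a* were at an adjusted p of 0.0378 in females without that heart. The part of the nuclear RNAs in those calls was not tested.

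By limma with all libraries at equal weight, the steps before had more calls. From control to 1 week, a difference that shares no heart with the later one, 3932 genes rose (23.6%) and 3635 fell (21.9%), as the mean of both sexes. From 1 to 3 weeks, which shares its 3-week hearts with the comparison of 6 and 3 weeks, 48 genes rose (0.289%) and 26 fell (0.156%). At an unadjusted p under 0.05, males had 2678 of the 16627 genes from 1 to 3 weeks and 1059 from 3 to 6 weeks. Females had 1671 and 2522, so the order of these 2 steps depended on the sex. Library quality weights gave 630 calls from 1 to 3 weeks and 847 from 3 to 6 weeks as the mean of both sexes. The precision of the last step bounds what could have been missed only on the log2(value + 0.5) scale of the test. That scale makes changes of genes with low values smaller. *Aqp2*, for example, changed by 1.02 on it and by 1.86 with edgeR, as the mean of both sexes. The 95% interval of a gene's log2 change between 3 and 6 weeks had a median half-width of 0.37 in males and 0.31 in females. As the mean of both sexes it was 0.24, which corresponds to 1.18-fold in value + 0.5. For 16327 of the 16627 genes (98.2%) the interval of the mean lay within a 2-fold change of value + 0.5 in either direction. For 14630 (88.0%) it lay within a 1.5-fold change. Within 1 sex the limits were wider: intervals lay within 1.5-fold for 63.1% of genes in males and 69.3% in females. Within 2-fold they lay for 95.5% and 91.7%, so the interval of the mean does not bound the change in 1 sex.

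The 3 genes that rose were *Aqp2*, *Nbl1* and *F5*. *Aqp2* (ENSMUSG00000023013) encodes a water channel best known from the collecting duct of the kidney, and lies on chromosome 15 at 99476936 to 99485016 (GRCm39, plus strand). Its values were 0.578, 0.512, 0.197 and 0.221 in male hearts at 3 weeks and 1.14, 1.38 and 1.19 at 6 weeks. In females they went from 0.223, 0.228, 0.403 and 0.294 at 3 weeks to 0.714, 0.816, 2.04 and 1.08 at 6 weeks. Every heart at 6 weeks was above every heart at 3 weeks of its sex. The level was low, with 6 to 15 reads per library at 3 weeks and 18 to 58 at 6 weeks. The log2 change on the log2(value + 0.5) scale was 1.01 in males and 1.02 in females, 1.02 as the mean of both (SE 0.16, adjusted p = 0.00184). The size of the change depended on the fit. It was 1.60 with a pseudocount of 0.1 (adjusted p = 0.0948), 0.45 with a pseudocount of 2, 1.86 with edgeR (adjusted p = 0.0545) and 1.87 with DESeq2 (0.0348). A stricter filter, a value of 1 or more in at least 4 libraries, left *Aqp2* untested.

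*Nbl1* (ENSMUSG00000041120) encodes a secreted antagonist of bone morphogenetic proteins and lies on chromosome 4 at 138809243 to 138820367 (GRCm39, minus strand). Male hearts held 54.6, 36.8, 37.2 and 31.3 at 3 weeks and 45.6, 68.2 and 71.7 at 6 weeks. Female hearts held 33.4, 36.4, 53.3 and 44.9 at 3 weeks and 56.4, 107, 84.3 and 70.04 at 6 weeks. The male groups overlapped through replicate 1 at 3 weeks and the female groups did not overlap. The mean log2 change was 0.76 (SE 0.13, adjusted p = 0.0111), and from 1 to 3 weeks it was 0.31 (adjusted p = 0.378). Without female 3 weeks replicate 2 the adjusted p was 0.0541, and 0.0823 when only libraries of 3 and 6 weeks entered the fit.

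*F5* (ENSMUSG00000026579), on chromosome 1 at 163979289 to 164047846 (GRCm39, plus strand), encodes coagulation factor V, a cofactor in thrombin formation. Its values in males were 2.16, 2.25, 2.96 and 2.83 at 3 weeks and 3.98, 4.91 and 7.16 at 6 weeks, with no overlap. In females they were 2.12, 1.48, 2.98 and 2.32 at 3 weeks and 3.77, 4.04, 7.27 and 2.404 at 6 weeks, and female 6 weeks replicate 4 lay within the range of 3 weeks. The mean log2 change was 0.84 (SE 0.15, adjusted p = 0.0159). *F5* had also risen from 1 to 3 weeks, by 1.09 (adjusted p = 3.4e-05), a comparison that uses the same 3-week hearts. The call was lost without male 3 weeks replicate 2 (adjusted p = 0.0537), male 6 weeks replicate 4 (0.0557), female 3 weeks replicate 2 (0.106) or female 6 weeks replicate 3 (0.0766), with a pseudocount of 0.1 (0.186), with edgeR (0.0545), with only the libraries of 3 and 6 weeks (0.0923) and without male 6 weeks replicate 4, female 6 weeks replicate 2 and male 3 weeks replicate 1 together (0.102). The 3 promoters were also searched for TTCNNNGAA, the letters of a STAT binding element. The 250 bases before each start in RefSeq (GRCm38.p6) held none on either strand, where 7.02% of all 32851 promoters hold at least 1.

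**Figure D1:**
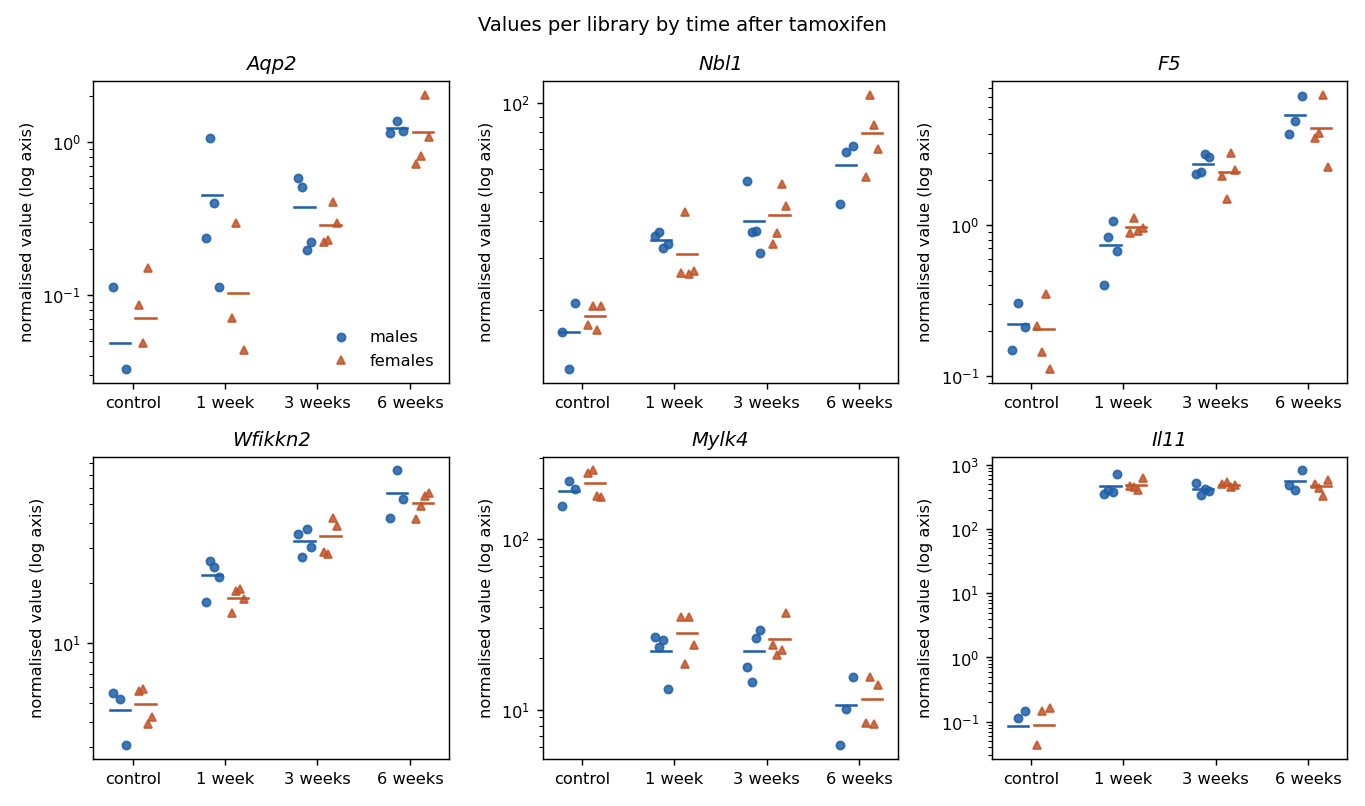
Normalised value per library (log axis) of 6 genes in controls and at 1, 3 and 6 weeks after tamoxifen, with males as circles, females as triangles and a short line at each group mean; libraries at 0 (some controls and 1-week hearts for *Aqp2* and controls for *Il11*) are not drawn. *Aqp2*, *Nbl1*, *F5* and *Wfikkn2* sit higher at 6 than at 3 weeks, *Mylk4* lower, and *Il11* lies between 328 and 819 at both times.

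Genes just short of the threshold as the mean of both sexes included *Wfikkn2*, *Gpx3*, *Crabp2*, *Clec11a* and *Efemp1*, and also *Grk5* (adjusted p = 0.0991), *Syt8* (0.111) and *Pdk4* (0.111). *Wfikkn2*, a secreted protein that binds myostatin, had values of 35.2, 27.05, 37.2 and 30.4 in males at 3 weeks and 42.6, 73.5 and 53.01 at 6 weeks, with no overlap. In females *Wfikkn2* was at 28.6, 28.1, 42.3 and 38.6 at 3 weeks and 42.1, 48.5, 55.003 and 56.5 at 6 weeks, and the lowest heart at 6 weeks lay just below the highest at 3 weeks. Its mean log2 change was 0.66 (SE 0.13, adjusted p = 0.05402), and it had risen from 1 to 3 weeks by 0.78 (adjusted p = 0.000341). *Gpx3*, a secreted glutathione peroxidase, had values of 454, 492, 414 and 397 in males at 3 weeks and 575, 542 and 896 at 6 weeks, and 449, 589, 526 and 487 at 3 weeks and 683, 1016, 708 and 591 at 6 weeks in females. It did not overlap in either sex, with a log2 change of 0.55 (SE 0.12, adjusted p = 0.0991). The retinoic acid binding protein *Crabp2* gave 0.74 (adjusted p = 0.0991), the secreted C-type lectin *Clec11a* 0.81 (0.0991) and the matrix glycoprotein *Efemp1* 0.62 (0.1097). In all 3 of these the male and the female change had the same sign, as the rule by which they were named requires.

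With all libraries at equal weight, no gene that was lower at 6 weeks passed the adjusted test by limma as the mean of both sexes, and 910 were lower at an unadjusted p under 0.05. That count of 0 depended on the fit, with 510 genes lower under library quality weights and 53 without female 6 weeks replicate 1. *Mylk4*, a cardiac member of the myosin light chain kinase family, stood at 191 ± 32.4 (SD, n = 3) in male and 213 ± 41.6 (SD, n = 4) in female controls, and at 22.1 and 28.1 on average at 1 week. Male hearts then held 17.8, 14.5, 26.4 and 29.4 at 3 weeks and 6.19, 10.1 and 15.6 at 6 weeks. Female hearts held 24.1, 20.9, 22.5 and 36.9 at 3 weeks and 8.36, 15.5, 8.25 and 13.9 at 6 weeks. The female groups did not overlap and the male groups overlapped at 1 heart. The log2 change was -1.11 (SE 0.29, adjusted p = 0.1696), so the difference did not pass the test over all genes. *Agbl2*, a tubulin carboxypeptidase, gave -0.61 (adjusted p = 0.13001) on 4 to 27 reads per library, and *Ccdc39*, a protein of motile cilia, -0.75 (0.165). In both sexes together, 15 genes (0.0902%) had every 6-week heart above every 3-week heart of its sex, 14 (0.0842%) had every one below, and in 21 (0.126%) the sexes separated in opposite directions. Within 1 sex such a separation held for 2.45% of genes higher and 2.04% lower in males, and for 3.98% and 3.9% in females, so it is given for single genes as a description. The 15 include *Aqp2* and *Gpx3* and, named after their values were seen, *Cd14*, a coreceptor for lipopolysaccharide (0.57, adjusted p = 0.1505), and *Hsd11b1*, which activates glucocorticoids (0.37, adjusted p = 0.3499).

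Genes that had moved in the first week had, as groups and as the mean of both sexes, medians slightly further from control at 6 weeks than at 3. The genes were chosen by the difference between control and 1-week hearts, at an adjusted p under 0.05 and a log2 change of at least 1. The fit behind that p shares its estimate of the spread with hearts of 3 and 6 weeks, and the calls from control to 1 week, 7567 with all libraries, ranged from 7488 to 8062 when 1 library of 3 or 6 weeks was left out. Of the 946 genes higher at 1 week, with a median log2 change of 1.49 in that week, the median change from 3 to 6 weeks was 0.16 (0.11 in males and 0.21 in females), against -0.0020 over all genes tested. The change was above 0 in 756 of them. At an unadjusted p under 0.05, 213 (22.5%) were higher and 10 (1.06%) lower, against 5.8% and 5.47% of all genes. Of the 233 genes lower at 1 week, with a median of -1.19, the median from 3 to 6 weeks was -0.12 (-0.01 in males and -0.21 in females), and 41 (17.6%) were lower and 2 (0.858%) higher at that threshold. From 1 to 3 weeks, with the same 3-week hearts, the median change had been 0.04 for the 946 and 0.13 for the 233. That step also uses the 1-week hearts by which the genes were chosen. The choice itself favours a shift toward control there, so the 0.13 does not show a return. None of the 946 or the 233 passed the adjusted test by limma. In males the counts were 67 higher and 7 lower of the 946, and in females 197 and 20. Of the 233 they were 3 higher and 5 lower in males, and 5 and 60 in females. Over all genes tested, 3.6% were higher and 2.73% lower in males, and 6.92% and 8.24% in females. For the 233 the male shares, 1.29% higher and 2.15% lower, were below those of all genes. The interval of the mean lay within 2-fold in value + 0.5 for 888 of the 946 (93.9%) and 205 of the 233 (88.0%). Within 1 sex these shares were 86.9% and 83.7% in males and 79.4% and 66.1% in females. Leaving out 1 library at a time moved the 213 between 154 and 251 and the 41 between 22 and 51. Without male 6 weeks replicate 4, female 6 weeks replicate 2 and male 3 weeks replicate 1 the counts were 199 and 44, and with library quality weights 277 and 72.

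**Figure D2:**
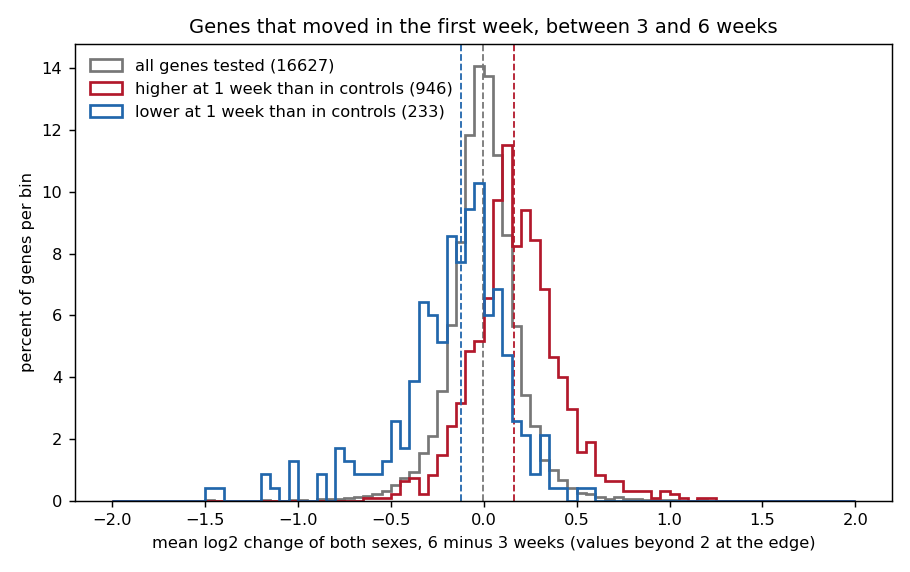
Distribution of the mean log2 change of both sexes from 3 to 6 weeks (x axis) as percent of genes per bin (y axis), for all 16627 genes tested and for genes higher (946) or lower (233) at 1 week than in controls, with a dashed line at each median. The median of the genes higher at 1 week lies at 0.16 and that of the genes lower at 1 week at -0.12.

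MHC class II presentation genes had values above those of 3 weeks in most hearts at 6 weeks, with a median log2 change of 0.48 over 11 genes. These genes encode the chains that display peptides (*H2-Aa*, *H2-Ab1*, *H2-Eb1*), the invariant chain *Cd74*, the peptide-loading chaperones *H2-DMa* and *H2-DMb1*, their modulators *H2-Oa* and *H2-Ob*, the transactivator *Ciita* and the protease *Ctss*. The chains that display peptides share control through a promoter with X and Y boxes. The 250 bases before the start of 2 peptide-presenting chains, from RefSeq (GRCm38.p6), are shown with the Y box CTGATTGG in capitals, because both chains are on the list and hold this element.
H2-Aa, chr17:34287824-34288073, minus strand: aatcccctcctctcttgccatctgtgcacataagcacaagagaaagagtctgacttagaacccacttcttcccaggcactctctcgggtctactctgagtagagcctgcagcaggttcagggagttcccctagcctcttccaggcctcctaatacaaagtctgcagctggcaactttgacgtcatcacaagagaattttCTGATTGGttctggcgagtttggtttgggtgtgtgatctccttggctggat
H2-Eb1, chr17:34305617-34305866, plus strand: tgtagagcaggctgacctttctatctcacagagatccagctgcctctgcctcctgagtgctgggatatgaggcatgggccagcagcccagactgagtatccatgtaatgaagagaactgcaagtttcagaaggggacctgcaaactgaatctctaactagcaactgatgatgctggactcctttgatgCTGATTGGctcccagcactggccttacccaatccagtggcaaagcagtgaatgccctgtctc
Of the 11 listed genes 8 had a promoter in the RefSeq table, and 3 of them held the Y box on either strand in these 250 bases, against 3.83% of all 32851 promoters and 6.34% of the tested genes with a promoter. A match of letters is a description and not a site.

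Summed over the 11 genes, MHC class II values were 2130.2, 773, 1062 and 1189 in male hearts at 3 weeks and 1713, 1812 and 1966 at 6 weeks. In females they were 1479, 1180.5, 1714 and 1343 at 3 weeks and 2127, 2259.7, 1897 and 2055 at 6 weeks. The female groups did not overlap. In males only replicate 1 at 3 weeks, the heart with high interferon response genes, lay above the hearts of 6 weeks. Controls summed to 209 to 355 in males and 169 to 185 in females, and hearts at 1 week to 506 to 814 and 465 to 847. As the mean of both sexes, 8 of the 11 genes were higher at an unadjusted p under 0.05 and 0 lower, where 5.8% and 5.47% of all genes were, and 0 passed the adjusted test. The median log2 change was 0.39 in males and 0.47 in females. At that threshold 5 of 11 were higher in males (against 3.6% of all genes) and 6 of 11 in females (against 6.92%). The median from 1 to 3 weeks, which uses the same 3-week hearts, was 0.96. Leaving out 1 library at a time kept the median of the mean between 0.39 and 0.61.

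Among the single chains, *Cd74* had values of 885, 305, 456 and 498 in males at 3 weeks and 705, 741 and 982 at 6 weeks, and 605, 486, 689.5 and 545 at 3 weeks and 849, 966, 787 and 885 at 6 weeks in females. Its log2 change was 0.64 (SE 0.17, adjusted p = 0.1696). *H2-Aa* was at 389.8, 139, 183 and 218 at 3 weeks and 322, 350.4 and 411 at 6 weeks in males and at 280.5, 219, 327 and 255 at 3 weeks and 407, 374, 336 and 353 at 6 weeks in females, a log2 change of 0.59 (SE 0.17, adjusted p = 0.182). In both genes the female groups did not overlap, and the male groups overlapped through replicate 1 at 3 weeks. *H2-Ab1*, chosen as a single value, gave 0.62 in females, where the exact permutation p was 0.0286, the smallest that 4 against 4 hearts can give, and 0.37 in males. For both sexes the exact p of *H2-Ab1* was 0.0376, and 0.300 after adjustment over the 8 genes tested in this way. *Ciita* gave 0.25 (SE 0.15), with groups that overlapped in both sexes. *H2-Oa*, at 0.59 (adjusted p = 0.1696), was read by only 2 to 39 reads per library.

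Markers of immune cells had smaller medians. Over all genes tested, 5.8% were higher and 5.47% lower at an unadjusted p under 0.05 as the mean of both sexes. Of 15 macrophage genes 1 was higher and 0 lower at an unadjusted p under 0.05, with a median log2 change of 0.09, and the lysosomal marker *Cd68* gave 0.17 (SE 0.14, exact permutation p = 0.294). None of 11 T cell genes was below that threshold in either direction, and their median was 0.08. Of 10 B cell and plasma cell genes tested in both sexes 2 were higher, with a median of 0.15 that joins 0.54 in males and -0.39 in females. Leaving out 1 library at a time moved these medians between 0.08 and 0.41 for the mean and between -0.61 and 0.13 in females, the higher value of each without female 3 weeks replicate 3, whose sum over the list was 165 against 34.3 to 45.7 in the other 3 hearts. The light chain *Igkc* had values of 1.27, 6.003, 3.68 and 1.47 in males at 3 weeks and 20.8, 2.51 and 5.29 at 6 weeks, and 2.46, 2.62, 36.1 and 6.701 at 3 weeks and 6.501, 30.9, 6.67 and 32.5 at 6 weeks in females. These ranges overlapped in both sexes, with a log2 change of 1.15 (SE 0.40, adjusted p = 0.2604). The neutrophil list had 1 of 5 genes higher and a median of -0.01. *Cxcl13*, a chemokine that attracts B cells, was at 29.4, 26.1, 26.2 and 29.2 in males at 3 weeks and 40.7, 58.5 and 39.5 at 6 weeks without overlap, an exact permutation p of 0.0571, the smallest that 3 against 4 hearts can give. In females *Cxcl13* was at 39.8, 33.3, 65.4 and 43.2 at 3 weeks and 52.96, 39.1, 63.1 and 30.5 at 6 weeks, which overlapped.

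Interferon response genes had a median below 0. As the mean of both sexes 7 of 18 were lower at an unadjusted p under 0.05 and 0 higher, against 5.47% and 5.8% of all genes. The median log2 change was -0.22. In males all 18 changes were below 0, with a median of -0.43 and 8 lower at that threshold (against 2.73% of all genes). In females the median was -0.06, with 1 lower and 1 higher (against 8.24% and 6.92%). Their sum was 726, 324, 249.5 and 310.2 in males at 3 weeks and 254, 251 and 245 at 6 weeks, and 294, 257, 313 and 285 at 3 weeks and 254, 266, 279 and 292 at 6 weeks in females. Without male 3 weeks replicate 1, the heart at 726, the median of the mean was -0.10 and 4 genes were lower. *Ifit2*, an interferon-induced protein, had values of 19.7, 17.02, 10.9 and 14.5 in males at 3 weeks and 8.304, 10.2 and 6.51 at 6 weeks without overlap, and a mean log2 change of -0.48 (adjusted p = 0.184). The 14 genes of MHC class I and the immunoproteasome, which also respond to interferon, had a median of -0.0044 and 0 genes below the threshold in either direction. Male 3 weeks replicate 1 stood apart for them too, with a sum of 2046 (others 988 to 1102). Leaving out 1 library at a time moved their median between -0.06 and 0.14 for the mean, and between -0.29 and 0.07 in males.

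STAT3-induced secreted proteins and complement had medians above 0 in both sexes. Of 15 acute phase and STAT3 target genes, 14 changes were above 0 as the mean of both sexes, with a median of 0.30. At an unadjusted p under 0.05, 5 were higher and 0 lower, against 5.8% and 5.47% of all genes. Within sex 1 was higher in males (against 3.6% of all genes) and 1 in females (against 6.92%). The protease inhibitor *Serpina3n* was at 1297, 1458, 1246 and 1060.3 in males at 3 weeks and 1512, 1575 and 2039 at 6 weeks, and at 1402, 1192, 1681 and 1562 at 3 weeks and 1606, 2378, 2254 and 1633 at 6 weeks in females. The male groups did not overlap, and the log2 change was 0.42 (SE 0.25, adjusted p = 0.539). *Reg3a*, a secreted lectin that had been at 0.0125 in male controls and at 0 in female controls, was at 0.424, 2.29, 1.31 and 0.8097 at 3 weeks and 9.88, 1.31 and 5.76 at 6 weeks in males and at 4.87, 3.38, 7.81 and 3.82 at 3 weeks and 9.08, 16.3, 4.99 and 5.55 at 6 weeks in females. Both pairs of groups overlapped, and the log2 change was 1.17 (SE 0.30, adjusted p = 0.165). The haemoglobin-binding *Hp* gave 0.56 (adjusted p = 0.288) and the metalloproteinase inhibitor *Timp1* 0.69 (0.3403).

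Of 17 complement genes 16 changes were above 0, with a median of 0.22 and 7 higher at an unadjusted p under 0.05, against 5.8% of all genes. In males the median was 0.15 with 1 higher (against 3.6% of all genes), and in females 0.39 with 7 higher (against 6.92%). *C4b*, an early component, was at 496, 389, 499 and 415 in males at 3 weeks and 530.2, 508 and 577 at 6 weeks, and at 348, 262, 379 and 352 at 3 weeks and 372, 560.0, 607 and 475 at 6 weeks in females. Its log2 change was 0.42 (SE 0.13, adjusted p = 0.223). The terminal component *C6* gave 0.63 (adjusted p = 0.224) and the C1 inhibitor *Serping1* 0.38 (0.257). *C3*, the central component, gave 0.08 (SE 0.14), with -0.23 in males and 0.39 in females. Without female 6 weeks replicate 1, 5 of the 17 complement genes passed the adjusted test in females, as did 361 of all 16956 genes.

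Fibroblast and matrix genes had medians above 0 as the mean of both sexes, with the higher value in females; the difference between the sexes was not tested for a list. Fibroblast markers had a median log2 change of 0.26, with 5 of 10 higher at an unadjusted p under 0.05. The fibroblast activation list had 0.23, with 5 of 20 higher, where 5.8% of all genes were higher. Within sex the activation list had a median of 0.06 in males, with 0 genes below that threshold, and 0.40 in females, with 6 higher and 0 lower. Collagens had a median of 0.13, with -0.12 in males (0 higher and 1 lower of 15) and 0.33 in females (7 higher and 0 lower). *Col1a1*, the main chain of fibrillar collagen, was at 1261, 1091, 725 and 527 in males at 3 weeks and 1088, 843 and 884 at 6 weeks. In females *Col1a1* was at 1141, 609.7, 1043 and 1209 at 3 weeks and 1003, 1172, 2177 and 1448 at 6 weeks, and the ranges overlapped in both sexes, with a mean log2 change of 0.33 (SE 0.18, exact permutation p = 0.199). The matricellular protein *Postn*, made by activated fibroblasts, gave 0.34 (SE 0.27, exact permutation p = 0.238).

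*Thbs1*, a matricellular activator of latent TGFβ, was at 27.1, 18.8, 7.85 and 8.39 in males at 3 weeks and 30.1, 15.5 and 10.2 at 6 weeks, and at 21.4, 7.37, 17.2 and 17.8 at 3 weeks and 39.6, 56.2, 111 and 25.8 at 6 weeks in females. The female groups did not overlap, and the log2 change was 1.73 (SE 0.44, adjusted p = 0.154) in females and 0.30 (SE 0.48) in males. The proteoglycan *Bgn* gave 0.54 (adjusted p = 0.226) and the cartilage matrix protein *Comp* 0.82 (0.22001). Of 14 matrix metalloproteinases and inhibitors, 7 were higher and 0 lower at an unadjusted p under 0.05 as the mean of both sexes. Over all genes 5.8% were higher and 5.47% lower, and the median of the 14 was 0.29. The membrane protease *Mmp14* was at 38.6, 24.4, 34.5 and 32.4 in females at 3 weeks and 44.4, 66.2, 77.7 and 50.3 at 6 weeks without overlap (log2 change 0.85, adjusted p = 0.108). In males *Mmp14* was at 61.7, 52.9, 34.5 and 29.996 at 3 weeks and 50.8, 40.5 and 52.9 at 6 weeks with overlap (0.15). Without female 6 weeks replicate 1, 2 of the 15 metalloproteinase genes and 2 of the 20 fibroblast activation genes tested in females passed the adjusted test there, *Mmp14* among the former (log2 change 0.98, adjusted p = 0.0378). That omission gave 361 calls among all 16956 genes tested in females. Female 3 weeks replicate 2 had the lowest sums of its group for complement and for the metalloproteinases.

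**Figure D3:**
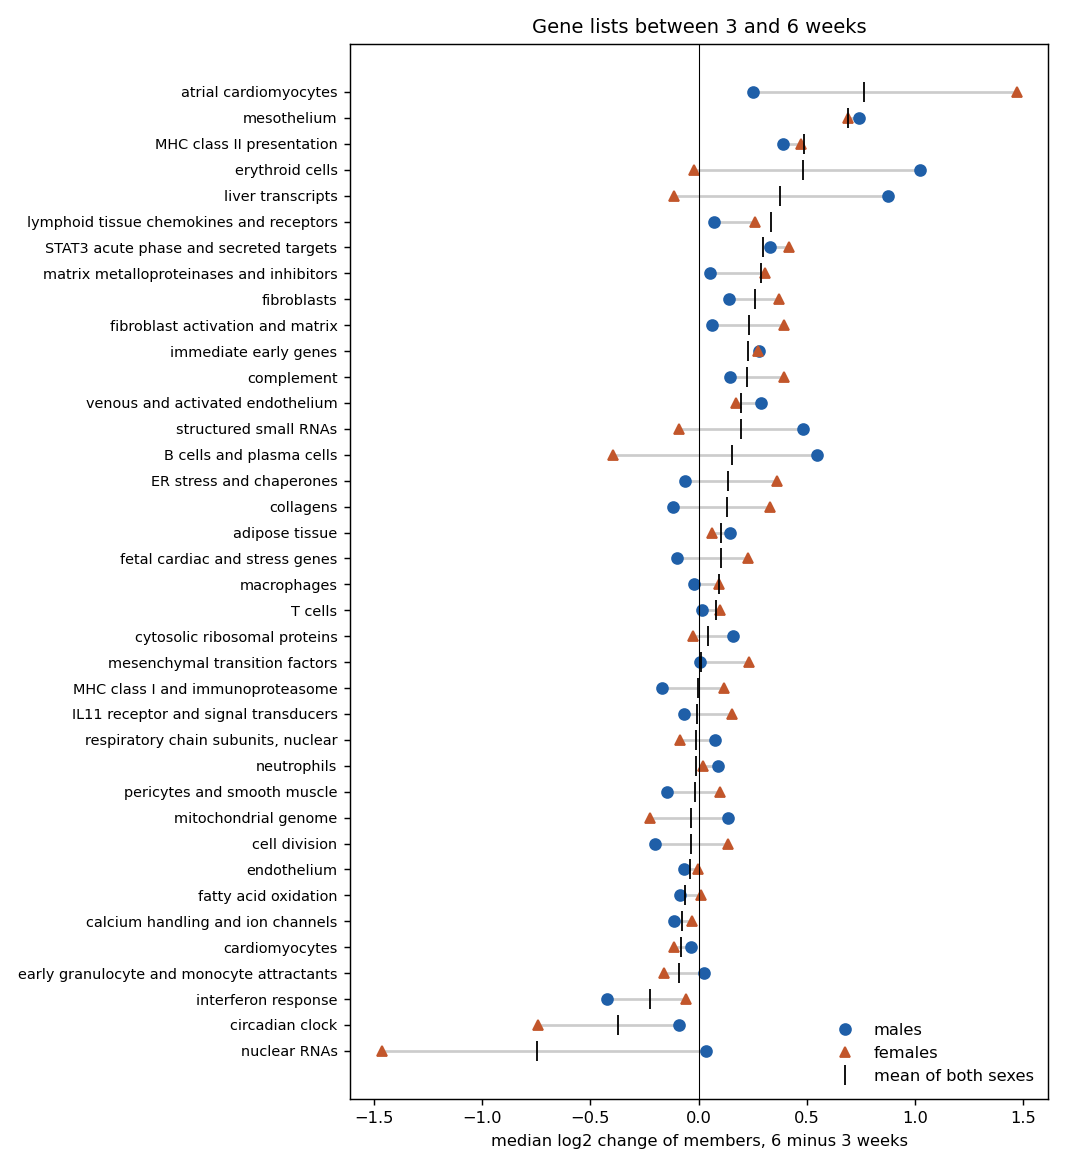
Median log2 change of the tested members of each gene list from 3 to 6 weeks, in males (circles), females (triangles) and as the mean of both sexes (vertical ticks), ordered by the mean. MHC class II presentation lies at 0.39 in males and 0.47 in females, while the circadian clock lies at -0.09 and -0.74 and the nuclear RNAs at 0.03 and -1.46.

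Cardiomyocyte, metabolic and vascular lists had medians near 0. Of all genes tested, 5.8% were higher and 5.47% lower at an unadjusted p under 0.05 as the mean of both sexes. The 15 cardiomyocyte markers had a median log2 change of -0.08, with 0 higher and 1 lower at an unadjusted p under 0.05. That gene was *Myh6*, the main motor protein of the adult mouse ventricle, at -0.40 (SE 0.20, adjusted p = 0.434). The fetal and stress genes had a median of 0.10 and 0 of 10 genes below the threshold in either direction. *Nppa*, the atrial natriuretic peptide, was at 99.6, 208, 141 and 63.6 in males at 3 weeks and 171, 69.2 and 57.9 at 6 weeks, and at 38.9, 100.1, 113 and 125 at 3 weeks and 104, 818, 166 and 61.8 at 6 weeks in females. The female heart at 818 was replicate 2, the one with atrial markers. The mean change of *Nppa* was 0.30 (SE 0.41, exact permutation p = 0.627), and that of *Nppb*, the B-type peptide, 0.09 (SE 0.28, 0.695). Calcium handling and channel genes had a median of -0.08. *Mylk4* was the 1 of 20 genes lower at an unadjusted p under 0.05 (5.0%), near the share of all genes. Fatty acid oxidation (22 genes), nuclear-encoded respiratory chain subunits (49) and the 13 genes of the mitochondrial genome had medians of -0.06, -0.01 and -0.03. The last joins 0.14 in males, with 12 of the 13 changes above 0, and -0.23 in females, with 0 above. Endothelial genes had a median of -0.04, pericyte and smooth muscle genes -0.02 and cell division genes -0.04, with 0 of 18 division genes below the threshold. Cell division had a median of -0.58 from 1 to 3 weeks, with the same 3-week hearts.

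Of 16 endoplasmic reticulum chaperone and stress genes, 7 were higher in females at an unadjusted p under 0.05 (against 6.92% of all genes) with a median of 0.36, and 1 was higher in males (against 3.6%) with a median of -0.07. The difference between the sexes was not tested for the list. The folding chaperone *Hspa5* gave 0.47 (SE 0.17, adjusted p = 0.216) in females and -0.06 (SE 0.23) in males, and the stress-induced factor *Manf* 0.52 and 0.12. The adjusted p of the difference between the sexes was 0.411 for *Hspa5*. As the mean of both sexes, 5.8% of all genes were higher and 5.47% lower at an unadjusted p under 0.05. Venous and activated endothelium had 2 of 9 genes higher as the mean of both sexes, with a median of 0.20: the adhesion molecule *Selp* at 0.58 (adjusted p = 0.364) and the diaphragm protein *Plvap* at 0.46 (0.3003). Of the transcription factors and markers of mesenchymal transition 3 of 9 were higher, with a median of 0.01, and the intermediate filament *Vim* at 0.28 (adjusted p = 0.322) was among them. Lymphoid tissue chemokines and receptors had 2 of 8 higher and a median of 0.33. Leaving out 1 library at a time moved that median between 0.20 and 0.39, and the male one, 0.07 with all libraries, between -0.10 and 0.33. Immediate early genes (12, median 0.23), early attractants of granulocytes and monocytes (5, median -0.09) and adipose genes (2, median 0.10) had 0 genes below the threshold in either direction. The direction turned with 1 library in the first and the second of these. Leaving out 1 at a time gave -0.10 to 0.34 for the immediate early genes as the mean of both sexes (-0.25 to 0.48 in males), both lowest without male 6 weeks replicate 1, and -0.26 to 0.03 for the attractants.

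Clock genes were among the genes with the lowest p in females, and 3 of them had female log2 changes beyond 2 in size. In this tissue as in others the circadian clock is a feedback loop in which BMAL1 (*Arntl*) and CLOCK drive *Per*, *Cry*, *Nr1d* and *Ciart* genes through E boxes, and the PAR factors *Dbp*, *Tef* and *Hlf* act through D boxes, so levels follow the time of day. The 250 bases before the starts of *Ciart* and *Per3*, the clock genes with the lowest p in females, are shown from RefSeq (GRCm38.p6), with E boxes (CACGTG) in capitals in *Ciart* and D boxes (TTATGTAA) in capitals in *Per3*.
Ciart, chr3:95882229-95882478, minus strand: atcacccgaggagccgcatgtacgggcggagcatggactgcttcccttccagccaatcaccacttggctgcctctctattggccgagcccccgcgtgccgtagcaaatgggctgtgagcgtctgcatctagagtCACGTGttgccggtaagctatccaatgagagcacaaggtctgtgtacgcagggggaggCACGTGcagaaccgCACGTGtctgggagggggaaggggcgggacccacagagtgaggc
Per3, chr4:151044666-151044915, minus strand: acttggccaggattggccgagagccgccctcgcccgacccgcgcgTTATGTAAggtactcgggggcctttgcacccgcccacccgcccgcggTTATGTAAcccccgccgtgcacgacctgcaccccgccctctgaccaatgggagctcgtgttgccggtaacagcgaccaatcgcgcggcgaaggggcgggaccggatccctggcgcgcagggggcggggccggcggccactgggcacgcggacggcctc
The *Ciart* promoter held 3 E boxes, and the *Per3* promoter held 2 D boxes and no E box in this window. Of the 15 listed clock genes 14 had a promoter, of which 5 held an E box and 1 a D box in at least 1 of their promoters, with both strands searched. The E box was in 6.02% of all promoters and in at least 1 promoter of 9.65% of the tested genes that had one, and the D box in 0.819% and 0.601%.

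*Per3* was at 31.8, 38.6, 40.6 and 40.997 in female hearts at 3 weeks and 4.99, 2.92, 5.09 and 12.6 at 6 weeks. These groups did not overlap, and the log2 change was -2.65 (SE 0.52, adjusted p = 0.0884). In males *Per3* was at 7.06, 19.3, 31.02 and 39.1 at 3 weeks and 7.62, 16.98 and 53.2 at 6 weeks, with a log2 change of -0.08 (SE 0.54). *Ciart* was at 10.8, 21.4, 12.7 and 12.5 at 3 weeks and 1.23, 0.4296, 1.405 and 8.85 at 6 weeks in females (-2.63, adjusted p = 0.108) and at 2.43, 4.98, 13.2 and 15.2 at 3 weeks and 1.68, 4.94 and 17.3 at 6 weeks in males (-0.37). *Arntl*, the opposite arm of the loop, was at 1.897, 0.608, 0.765 and 1.03 in females at 3 weeks and 15.3, 14.2, 11.3 and 1.79 at 6 weeks (2.56, adjusted p = 0.162), groups that overlapped at 1 heart. In females replicate 4 at 6 weeks was nearest to the hearts of 3 weeks in all 3 genes. In males the spread within a group exceeded the difference between groups: replicate 1 at both times had low *Per3* and high *Arntl*. Over the 15 clock genes, 3 were higher and 10 lower in females at an unadjusted p under 0.05 (against 6.92% and 8.24% of all genes), and 0 were in males. None passed the adjusted test with all libraries. The hour at which hearts were taken is not given in the sources used here, and the part of time of day in the female values was not tested.

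**Figure D4:**
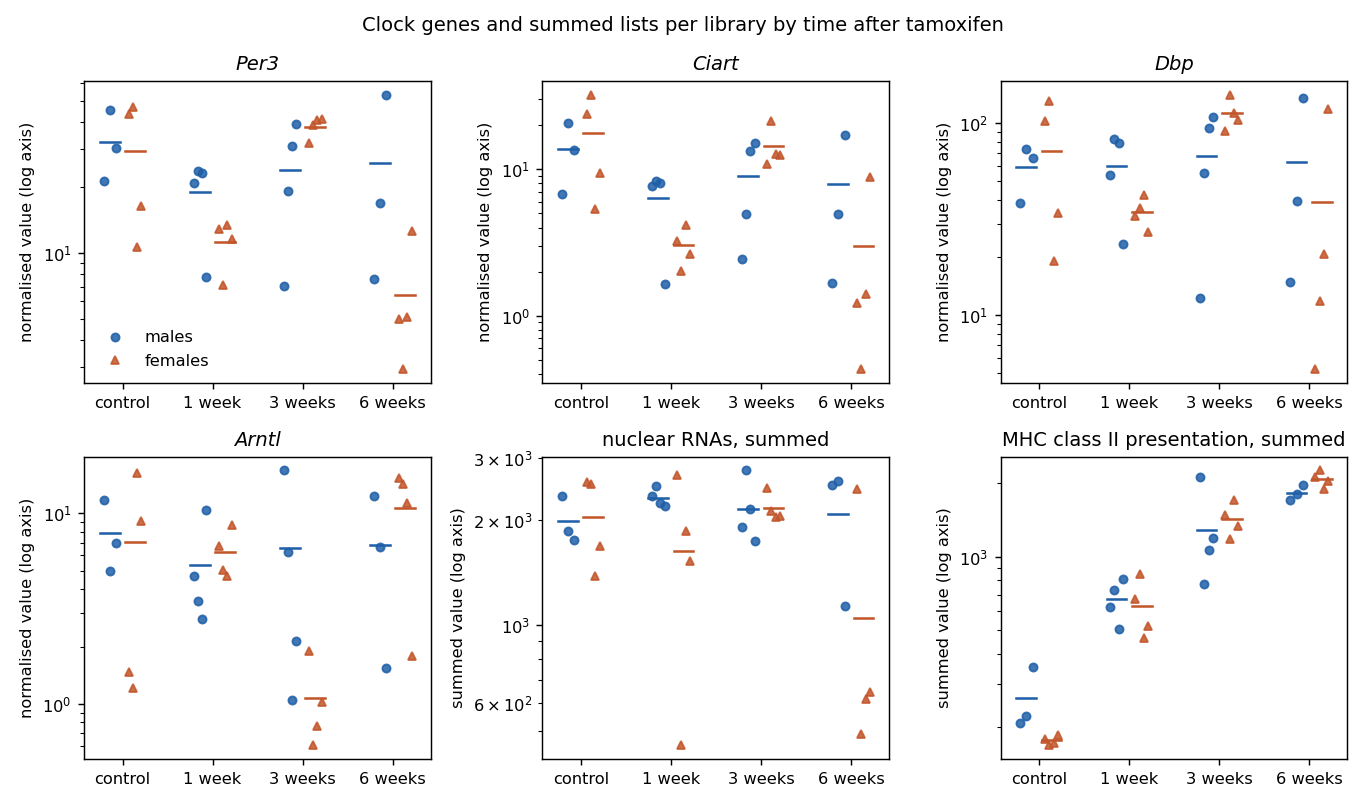
Normalised value per library (log axes) of 4 clock genes, and summed values of 8 nuclear RNAs and of 11 MHC class II genes, in control hearts and 1, 3 and 6 weeks after tamoxifen, with males as circles, females as triangles and short lines at group means. In females at 6 weeks 3 of 4 hearts have low *Per3*, *Ciart* and *Dbp* with high *Arntl*, and 3 of 4 have nuclear RNA sums of 488 to 647, while MHC class II sums lie at 1897 to 2259.7.

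Lists that report on RNA quality and on other tissues were examined for the same hearts. All 8 nuclear RNAs were lower in females at an unadjusted p under 0.05, against 8.24% of all genes. Their median was -1.46, while the male median was 0.03. *Malat1* was at 975, 924, 735 and 777 in females at 3 weeks and 811, 262, 254 and 330.5 at 6 weeks, and *Neat1* at 1209, 896, 1027 and 932 at 3 weeks and 1349.8, 150.0, 244 and 215 at 6 weeks. In both genes female 6 weeks replicate 1 lay among or above the hearts of 3 weeks and the other 3 lay below all of them. Over the 8 RNAs the female sums ran from 1387 to 2565 in controls and from 455 to 2682 at 1 week, and the male sums from 1745 to 2769.5 at 3 weeks and from 1133 to 2579 at 6 weeks, so low hearts also occurred at other times. Atrial markers had a median of 0.76 over the 3 genes tested in both sexes, and of 0.17 without female 6 weeks replicate 2 (in females 1.47 with it and 0.16 without). *Myl7*, the atrial light chain, was tested in females alone, at 0, 0.075999, 0.161 and 0.0588 at 3 weeks and 0.0793, 346, 0.527 and 0 at 6 weeks. The mesothelial list had a median of 0.69 with 1 of 7 genes higher, where 5.8% of all genes were as the mean of both sexes. Its sums were 8.29, 20.5, 26.3 and 5.78 in males at 3 weeks and 34.1, 22.99 and 6.996 at 6 weeks. In females they were 13.1, 6.65, 76.9 and 44.5 at 3 weeks and 33.9, 62.4, 103 and 17.1 at 6 weeks, and the groups overlapped. Erythroid genes had a median of 0.48, and of 0.01 without male 6 weeks replicate 4. Liver transcripts, whose list was chosen after its values had been seen, summed to 60.6 in male 6 weeks replicate 4 and 104 in female 6 weeks replicate 1, against at most 4.69 in the other hearts at 6 weeks. Structured small RNAs had a median of 0.19 over 3 genes, and of -0.24 without male 6 weeks replicate 4, which held a sum of 145 against 19.8 and 24.8 in the other 2 hearts of its group, and of -0.08 without female 6 weeks replicate 2. Cytosolic ribosomal proteins had a median of 0.16 in males and -0.03 in females. In males 23 of 81 were higher and 0 lower, against 3.6% and 2.73% of all genes. These last lists were also chosen after their values had been seen, and the part of all of them in the other results was not tested.

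The male and the female step from 3 to 6 weeks had little in common gene by gene. Across the 16627 genes the 2 changes had a Pearson r of 0.000320 (Spearman rho -0.0359), and 47.9% of genes had the same sign. These values describe genes, which share hearts and are no independent replicates. The same measure was 0.825 for the step from control to 1 week and -0.0288 for the step from 1 to 3 weeks. At an unadjusted p under 0.05 in both sexes there were 134 genes, 12.7% of the 1059 in males and 5.31% of the 2522 in females. Of all genes tested in females 6.92% were higher and 8.24% lower at that threshold, and in males 3.6% and 2.73%. The sign was the same in 69 of the 134, with 53 higher in both and 16 lower in both. The difference between the sexes was tested gene by gene, as males minus females in the log2 change, and 1 of 16627 genes (0.00601%) was called.

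That gene was *Adamts9*, a secreted protease of proteoglycans (ENSMUSG00000030022, chromosome 6 at 92749680 to 92920520 in GRCm39, minus strand). Male hearts held 24.1, 16.03, 21.5 and 16.1 at 3 weeks and 12.3, 18.5 and 12.2 at 6 weeks. Female hearts held 13.8, 8.97, 8.66 and 15.8 at 3 weeks and 28.1, 26.3, 28.1 and 17.6 at 6 weeks. The female groups did not overlap, and the male groups did. The log2 change was -0.43 (SE 0.19) in males and 1.07 (SE 0.20) in females, a difference of -1.50 (SE 0.28, adjusted p = 0.04895). The adjusted p of the difference lay above the threshold in 8 of the 15 fits that left out 1 library, up to 0.400 without male 6 weeks replicate 4, and at 0.657 without male 6 weeks replicate 4, female 6 weeks replicate 2 and male 3 weeks replicate 1. With edgeR it was 0.0675. Other gene models overlap *Adamts9* on both strands in the annotation, *F5* likewise, and *Aqp2* on the opposite strand.

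Within females the lowest adjusted p, 0.0794, was shared by several genes, *Adamts9* and the lectin-like receptor gene *Klrb1b* among them. *Pdk4*, the kinase that closes pyruvate dehydrogenase in fasting, was at 242, 63.7, 60.9 and 80.7 in females at 3 weeks and 602, 201, 372 and 505 at 6 weeks, and at 468, 351, 251 and 380.4 at 3 weeks and 539, 574 and 249 at 6 weeks in males. Its log2 change was 2.05 (SE 0.38) in females and 0.27 (SE 0.37) in males. *Cdkn1a*, an inhibitor of cyclin-dependent kinases, was at 20.1, 16.2, 19.1 and 20.2 at 3 weeks and 63.3, 71.5, 68.3 and 28.3 at 6 weeks in females (1.51, SE 0.28). *Grk5*, a kinase of G protein-coupled receptors, was at 36.5, 29.8, 28.8 and 31.2 at 3 weeks and 48.6, 53.1, 55.3 and 42.5 at 6 weeks in females (0.65, SE 0.11), and *Prodh*, proline dehydrogenase, at 20.01, 26.8, 20.2 and 21.98 at 3 weeks and 14.6, 9.62, 9.69 and 11.7 at 6 weeks (-0.94, SE 0.17). In the last 3 the female groups did not overlap. In males the same 3 genes gave 0.18, 0.11 and 0.15, with groups that overlapped, and the difference between the sexes did not pass the adjusted test for any of the 4 (adjusted p of at least 0.233).

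**Figure D5:**
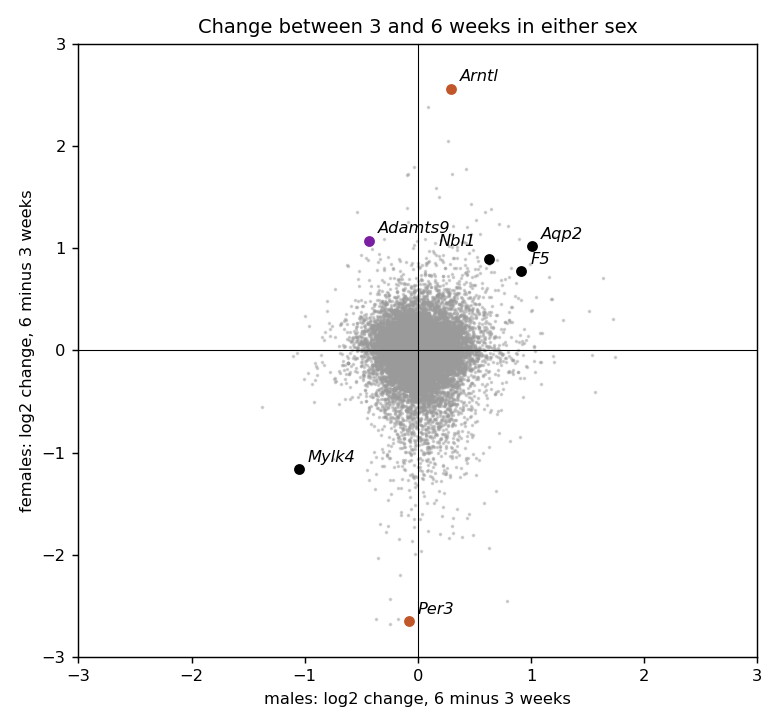
Log2 change from 3 to 6 weeks in males (x axis) and females (y axis), 1 point for each of the 16627 genes tested in both, with named genes in colour. *Aqp2*, *Nbl1* and *F5* lie above 0 in both sexes, *Mylk4* lies below 0 in both, and *Per3*, *Arntl* and *Adamts9* lie farther from 0 in females than in males.

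Of the 8 genes compared as single values by the exact permutation test within sex (*Il11*, *Nppa*, *Nppb*, *Cd68*, *H2-Ab1*, *Cxcl13*, *Col1a1* and *Postn*), 0 passed after adjustment over the 8, in males, in females or in both. The smallest p the test can give is 0.0571 in males, 0.0286 in females and 0.000816 for both sexes together, so within males no single gene could pass.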

How the data were processed

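PolyA RNA from mouse hearts was sequenced with a directional kit. Per the study's methods and labels, the authors used STAR for alignment to GRCm39 and featureCounts for counting. The deposited signal values, named CPM by the authors and given as 1 table for each sex, are read counts divided by 1 factor per library, and multiplying by that factor gave whole reads (within 0.001) for 100% of the values. The design had assumed CPM, and the planned test on log2 values was kept. Listed are 17646 genes for males and 17223 for females, and the tables were scaled separately, so changes were estimated within a table.

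Groups came from the labels. The 2 male columns with conflicting labels were not used. limma 3.58.1 (R 4.3.3, with a mean-variance trend) was run on log2(value + 0.5), for genes at 0.5 or more in at least 3 libraries, with all groups of a sex in 1 fit. The male and female changes were averaged, or subtracted, with their errors combined, and Benjamini-Hochberg adjustment covered all genes tested. An adjusted p under 0.05 was a call. Single values were compared with exact two-sided permutation tests (scipy 1.17.1). The edgeR (4.0.16) and DESeq2 (1.42.0) alternatives used the recovered reads. The limma fits, with the mean and difference of the sexes taken from them, were tested on simulated data. The edgeR and DESeq2 fits were not.

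Genes named are the 8 single values, every listed gene, the 12 higher and 12 lower with the lowest p and the same sign in both sexes, the 5 higher and 5 lower within each sex, and the 5 with the lowest p for males minus females. Gm and Rik models were passed over (4 times), and 1 gene of this rule is not reported here. The members and the 38 lists were chosen with earlier results of these data known, and 4 lists after the values had been seen. Positions are from a GRCm39 annotation, and promoters from RefSeq (GRCm38.p6). Replicates differed by more than counting noise and share only a number across groups.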

Additional observations from a re-analysis of the deposited data

Results flagged for a closer look

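A library that stood far from the other 3 of its group was found in 23 of 222 groups of 4 examined (10.4%), where chance gives about 5%. Values are given with the range of the other 3 hearts of the same group, and no explanation was tested.

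Among single genes in male hearts at 3 weeks, replicate 3 had *Agbl2* at 0.592 (others 0.921 to 0.964), *Efemp1* at 31.6 (others 27.05 to 27.8) and *Grk5* at 49.99 (others 37.1 to 38.5). In female hearts at 3 weeks, *Klhdc8b* was at 8.78 (others 11.2 to 11.7) in replicate 2 and *Pdk4* at 242 (others 60.9 to 80.7) in replicate 1. In female hearts at 6 weeks, *Adamts10* was at 42.4 (others 22.5 to 24.5) in replicate 1 and *Nppa* at 818 (others 61.8 to 166) in replicate 2.

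Male 3 weeks replicate 1 had sums above its group for interferon response genes, 726 (others 249.5 to 324), MHC class I and the immunoproteasome, 2046 (others 988 to 1102), lymphoid tissue chemokines and receptors, 166 (others 84.6 to 95.98), and fibroblasts, 1969 (others 1762 to 1784). Male 3 weeks replicate 2 had cell division genes at 88.2 (others 65.96 to 69.2).

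Female 3 weeks replicate 2 had lower sums for complement, 2825 (others 3816 to 3993), metalloproteinases and their inhibitors, 703 (others 892 to 925), and mesenchymal transition factors, 709 (others 815 to 828), and a higher one for pericytes and smooth muscle, 2543 (others 2215 to 2268). B cell and plasma cell genes summed to 165 (others 34.3 to 45.7) in replicate 3 and endothelial genes to 1275 (others 1150.0 to 1164) in replicate 1.

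In female hearts at 6 weeks, replicate 1 held nuclear RNAs at 2458 (others 488 to 647) and liver transcripts at 104 (others 3.302 to 4.69). Replicate 2 held atrial markers at 862 (others 24.9 to 40.1) and structured small RNAs at 55.9 (others 9.06 to 13.8), and replicate 3 macrophage genes at 478 (others 387 to 395).

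*Adamts9* is listed because the change from 3 to 6 weeks differed between the sexes by the test of the difference itself, by -1.50 on the log2 scale (males minus females, limma adjusted p = 0.04895).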

How the results depend on the processing

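Of 74 genes and comparisons named, under 27 alternatives, 1810 values kept direction and side of the threshold, 26 lost and 131 gained a call, and 27 changed sign. No filter, the stricter filter and median-of-ratios scaling left every count of calls within 1.5 times. The cause of the differences below was not tested, beyond the smaller number of libraries where some were left out.

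Counts of calls from 3 to 6 weeks, leaving out 1 library at a time, ranged from 0 to 1 in males, 0 to 361 in females, 1 to 84 for the mean of both sexes, 0 to 174 for males minus females and 0 to 3 for listed genes; from 1 to 3 weeks they ranged from 0 to 6 in males, 20 to 45 in females and 43 to 100 for the mean. The female count was 361 without female 6 weeks replicate 1, 37 without replicate 4 and 1 without female 3 weeks replicate 1. The count for the mean was 84 and 11 without female 6 weeks replicates 1 and 4, 15 and 5 without male 3 weeks replicates 1 and 3, 8, 6 and 6 without male 6 weeks replicates 1, 3 and 4, and 5, 1 and 5 without female 3 weeks replicates 1, 2 and 3.

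With a pseudocount of 0.1 the mean had 1 call, and 48 from 1 to 3 weeks. With a pseudocount of 2 there were 1 in females, 12 for the mean and 0 for males minus females. With only the 3-week and 6-week libraries there were 2, 1 and 0. Library quality weights gave 1 in males, 715 in females, 847 for the mean, 227 for males minus females and 50 listed genes, with 1329, 517 and 630 from 1 to 3 weeks in males, females and the mean. edgeR gave 1 for the mean and 0 for males minus females. DESeq2 gave 1, 117 and 16 in males, females and the mean, 1 listed gene, and 282 and 96 from 1 to 3 weeks in males and females. A log2 change of at least 1 left 1 for the mean, 17 from 1 to 3 weeks and 1179 from control to 1 week. Without the 3 libraries that stood apart (male 6 weeks replicate 4, female 6 weeks replicate 2 and male 3 weeks replicate 1, an alternative chosen after seeing the data) there were 6 for the mean, 0 for males minus females, 2 listed genes and 5 in males from 1 to 3 weeks.

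The replicate block gave 6 calls for the mean. Hearts with the same number had residual correlations of -0.059 to 0.032 in males and -0.189 to -0.034 in females, so the numbers do not pair the hearts.

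Single values that changed sign when 1 library was left out were *Il11* (-0.25 to 0.0304 in females, -0.0142 to 0.24 for the mean), *Nppa* (-0.0775 to 0.54 for the mean), *Nppb* (-0.12 to 0.28 in males, -0.12 to 0.34 in females, -0.0217 to 0.22 for the mean), *Cd68* (-0.0165 to 0.14 in females), *Cxcl13* (-0.14 to 0.21 in females), *Col1a1* (-0.10 to 0.32 in males) and *Postn* (-0.18 to 0.37 in males). With quality weights *Nppa* was 0.17 in males, *Cd68* -0.0071, -0.0155 and -0.0113 in males, females and the mean, and *Cxcl13* -0.0548 in females. Without the 3 libraries *Nppb* was -0.12 and *Cd68* -0.0165 in females.

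With 3 or 4 hearts a group, changes under about 1.5-fold in 1 sex lie within the interval of many genes, and genes with few reads per library, such as *Aqp2*, depend on the pseudocount.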

Other observations

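Without female 6 weeks replicate 1, an omission examined because it moved the female count most, many female genes shared the lowest adjusted p (0.0378, limma), and the first 4 named here were picked from them after their values had been seen. *Pfkfb2*, which sets the level of the glycolytic activator fructose bisphosphate, had a log2 change of -1.73. *Prodh*, which breaks down proline, had -1.06. *Plat*, tissue plasminogen activator, had 0.90, and *Ccl22*, a chemokine of dendritic cells and macrophages, 0.97. *Aqp2* and *Nbl1*, called as the mean of both sexes with all libraries, had 1.15 and 1.04. With all 4 hearts none of these genes passed the adjusted test in females, and the heart left out was chosen after the counts had been seen.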
